A study of Drosophila melanogaster with 15 samples.

Results

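The chemoreceptors of Drosophila melanogaster are described here at the level of transcripts in whole males exposed to ethanol vapor. All probe sets were taken whose annotated gene is an odorant receptor (Or), a gustatory receptor (Gr) or an ionotropic receptor (Ir), with the odorant coreceptor Orco (also called Or83b) counted among the odorant receptors. They number 190 of the 18769 probe sets on the array that are not hybridization controls: 64 for odorant receptors, 66 for gustatory receptors and 60 for ionotropic receptors, from 172 genes in all, among 12549 named genes on the array. A probe set is a group of short oligonucleotides that together measure a transcript. Of the 190, 186 belong to 1 receptor gene each and 4 to a pair of neighbouring or near-identical receptor genes, for which the pair cannot be told apart.

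The study exposed isogenic Canton-S B males, 3 to 5 days old, to ethanol vapor in an inebriometer, a column from which flies elute when they lose postural control. Each array read total RNA from the whole bodies of 30 pooled males, with 5 arrays for flies collected directly after a 1st exposure, 5 for flies exposed again after 2 h of recovery (2nd exposure) and 5 for control flies without ethanol. The study names 5 independent replicates a treatment, and by its methods the control, once-exposed and twice-exposed flies of a replicate were all taken from the same starting groups. Exposed flies were those that eluted near the peak time, while control flies were not passed through the column, so exposure and selection by elution time cannot be told apart. Flies of the 2nd exposure were collected later than the control flies by at least the recovery time, so a 2nd exposure and a later hour cannot be told apart.

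Odorant receptors sit in sensory neurons of the antenna and the maxillary palp, and gustatory receptors mainly in taste neurons of the proboscis, legs and wings. Ionotropic receptors include a set made in the antenna and a larger set, much of it made in taste organs. A tuned odorant receptor reaches the dendrite only in a complex with the coreceptor Orco, which nearly all Or-bearing neurons make. Ionotropic receptors, relatives of ionotropic glutamate receptors, likewise work with broadly made coreceptors, Ir25a, Ir8a, Ir76b and Ir93a, which join tuned subunits that detect acids, amines, temperature or humidity. Each tuned receptor is made by few cells of the fly.

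The deposited unit is Signal, a linear intensity that depends on the probes of each probe set, so a difference in Signal between genes is no difference in amount of transcript. Signals are tested between arrays only, and are set side by side across probe sets to describe the floor for testing and the precision above it. The median Signal of all probe sets was 130 to 133 after 1 exposure and 139 to 142 after 2 exposures, against 136 to 139 in control flies. Within the treatments the arrays were not all alike. The leading component of the residuals, which held 13.5% of their variance, set arrays 1 and 3 of the 1st exposure and arrays 1, 2 and 3 of the 2nd exposure (scores of -29.1 to -8.3) apart from the other 5 arrays of exposed flies (scores of 13.5 to 23.3), with control arrays between -6.29 and 9.39. The calls of Orco, Ir25a and Ir75a and of the gene lists below were therefore repeated with that component in the fit, without arrays 4 and 5 of the 2nd exposure, and with the replicate number as a block. The component comes from the residuals of the same fit, so adding it cannot move a log2 change, only its spread. A call kept with it is therefore no check of the change itself.

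Most chemoreceptor probe sets had low Signals in whole males, which counts probe sets and does not rank amounts of transcript. A mean Signal of 20 or more over the 15 arrays was reached by 42 of the 190 chemoreceptor probe sets (22.1%), from 41 genes, against 13809 of all 18769 (73.6%). The 3 families were alike in this: 15 of 64 odorant (23.4%), 15 of 66 gustatory (22.7%) and 12 of 60 ionotropic (20%) probe sets reached it. The median of the mean Signals was 13.1 for odorant, 12.4 for gustatory and 9.31 for ionotropic receptors, and 138 for all probe sets. By mean Signal, 82 chemoreceptor probe sets were under 10, 66 were from 10 to 20, 38 were from 20 to 50 and 4 were at 50 or more.

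**Figure D1:**
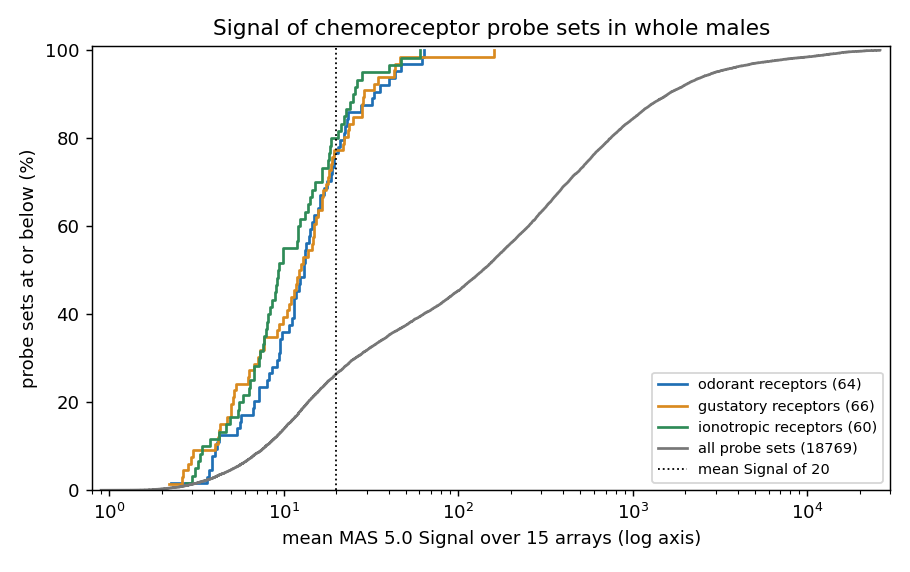
Cumulative share of probe sets (vertical axis, %) at or below a given mean Signal over 15 arrays (horizontal axis, log scale), for the odorant, gustatory and ionotropic receptors and for all 18769 probe sets. The dotted line marks a mean Signal of 20, which 22.1% of chemoreceptor probe sets and 73.6% of all probe sets reached.

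The level of 20 is a floor chosen for testing and not a limit of detection, and members stood close on both sides of it. Just inside were Ir94b at a mean Signal of 20.4, Or74a at 20.5 and Or65c at 21.0. Just outside were Or88a at 19.5, Or30a at 19.4 and Gr10b at 19.4. Array by array, 11 members kept a Signal of 20 or more on all 15 arrays: Orco, Or43b, Or94a, Or59b, Or23a, Or59c, Gr32a, Gr8a, Gr28a, Ir25a and Ir76a. On no array did 40 members reach it.

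The number of chemoreceptor probe sets at 20 or more on an array was 40 to 63 with a median of 45 after 1 exposure and 48 to 67 with a median of 56 after 2 exposures, against 46 to 72 with a median of 64 in control flies. The ranges of the treatments overlap. By the mean of a treatment, 43 members reached 20 after 1 exposure and 44 after 2 exposures, against 53 in control flies, and 28 did so in all 3 treatments. The median Signal of the 190 members on an array was 7.0 to 9.75 after the 1st exposure, under each of the control arrays at 10.5 to 14.1. It was 8.10 to 12.2 after the 2nd exposure, which overlaps the control arrays. Among members under the floor, 148 in number, the array medians were 4.2 to 6.6 after 1 exposure and 5.2 to 7.7 after 2 exposures. Control flies had 5.75 to 9.25, so these ranges overlap. The 4812 other probe sets under the floor had array medians of 4.8 to 5.8 after 1 exposure and 5.2 to 7.6 after 2 exposures, against 5.5 to 6.7 in control flies, and these ranges overlap too. The part of such a shift at the low end of the arrays in the medians of the chemoreceptors was not tested.

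The 42 members at or above the floor were tested with all other such probe sets on log2(Signal) with limma, with adjusted p-values over all 13809. After the 1st exposure 2 of the 42 passed an adjusted p of 0.05, both lower, Orco and Ir25a. Of all tested probe sets, 50 passed (0.362%), of which 26 were lower (0.188%) and 24 higher (0.174%). In the 2nd exposure 1 of the 42 passed, Orco, again lower, where 501 of all probe sets passed (3.63%), 167 of them lower (1.21%) and 334 higher (2.42%). Between the exposures 1 of the 42 passed, Ir25a, higher after the 2nd exposure than after the 1st, where 243 of all probe sets passed (1.76%), 154 of them higher (1.12%) and 89 lower (0.645%). Over the 3 treatments together the moderated F test called 2 of the 42, Orco and Ir25a, and 499 of all probe sets (3.61%). Both comparisons with control flies share the same 5 control arrays. RNA of a whole fly is measured, so fewer cells of a type and less RNA per cell cannot be told apart.

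Orco, the coreceptor that carries tuned odorant receptors to the dendrite, was lower after both exposures. The study already named it, as Or83b, among the acutely down-regulated genes of these same arrays, so it is no independent case. Its Signal (probe set 1636134_at) was 61.1, 43.9, 28.2, 38.3 and 35.1 after the 1st exposure, against 96.6, 89.6, 86.2, 104.6 and 105.2 in control flies. The highest array of the 1st exposure lay below the lowest control array. Flies of the 2nd exposure had Signals of 50.2, 60.7, 35.1, 60.8 and 32.6, again with every array below every control array. The means were 41.3 ± 12.4 after 1 exposure and 47.9 ± 13.5 after 2 exposures, against 96.4 ± 8.59 in control flies (SD, n = 5 each).

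On the log2 scale Orco fell by 1.27 ± 0.21 after the 1st exposure (SE, limma adjusted p = 0.0199), a ratio of 0.416 to control flies with a 95% interval of the log2 change of -1.72 to -0.81. It fell by 1.06 ± 0.21 after the 2nd exposure (adjusted p = 0.0128), a ratio of 0.481 with an interval of -1.51 to -0.60. The exposures differed by 0.21 ± 0.21 (2nd minus 1st, adjusted p = 0.677, interval -0.24 to 0.66), a difference within the spread between arrays. With the leading residual component in the fit the adjusted p was 0.0236 for 1 exposure and 0.0130 for 2 exposures, and without arrays 4 and 5 of the 2nd exposure it was 0.0252 and 0.0433. With the replicate block it was 0.0235 and 0.0134. The call after the 2nd exposure was kept in all 15 fits with 1 array left out (adjusted p of 0.0073 to 0.0336). The call after the 1st exposure was lost without control array 1 (0.0591) or 4 (0.0557), or without array 3 (0.0612), 4 (0.0601) or 5 (0.0505) of the 1st exposure, while the log2 change stayed between -1.42 and -1.14.

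Ir25a, the most widely made ionotropic coreceptor, was lower after the 1st exposure and back among the control values after the 2nd. Its Signal (probe set 1640674_at) was 26.9, 27.4, 28.9, 28.7 and 36.7 after the 1st exposure, against 51.4, 57.3, 62.8, 37.3 and 77.1 in control flies. The groups did not overlap, though the highest array of the 1st exposure, 36.7, came close to the lowest control array, 37.3. Flies of the 2nd exposure had 58.4, 39.5, 60.7, 59.4 and 57.7, inside the control range and with every array above every array of the 1st exposure. The means were 29.7 ± 3.99 after 1 exposure and 55.1 ± 8.82 after 2 exposures, against 57.2 ± 14.6 in control flies (SD, n = 5 each).

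Ir25a fell by 0.91 ± 0.17 on the log2 scale after the 1st exposure (SE, limma adjusted p = 0.0449), a ratio of 0.531 with an interval of -1.29 to -0.54. After the 2nd exposure the change was -0.03 ± 0.17 (adjusted p = 0.958, interval -0.40 to 0.34). The 2nd exposure was higher than the 1st by 0.88 ± 0.17 (adjusted p = 0.0215), a ratio of 1.85. With the replicate number as a block, in view of the shared starting groups, the call against control flies was lost (adjusted p = 0.0607) and that between the exposures was kept (0.0332). The call against control flies was close to the threshold and was kept in only 3 of 15 fits with 1 array left out, those without control array 4 (adjusted p = 0.0203), array 5 of the 1st exposure (0.0456) or array 2 of the 2nd exposure (0.0277), and in the other 12 the adjusted p was up to 0.119. The difference between the exposures was kept in 9 of those 15 fits. It was lost without array 1 (adjusted p = 0.0525), 2 (0.0566) or 4 (0.0567) of the 1st exposure or array 1 (0.0528), 4 (0.0532) or 5 (0.0515) of the 2nd, with a log2 difference of 0.84 to 1.0 over all 15. With the residual component in the fit the adjusted p was 0.0397 against control flies and 0.0176 between the exposures, and without arrays 4 and 5 of the 2nd exposure it was 0.0757 and 0.131. Quantile normalization, which gives all arrays the same distribution of Signals, lost both calls of Ir25a. The log2 change was then -0.78 against control flies (adjusted p = 0.0881) and 0.67 between the exposures (0.0844).

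The other 3 ionotropic coreceptors were not distinguishable between treatments at these Signals. Ir8a, the coreceptor of the acid-sensing subunits (1631659_at), had Signals of 23.6, 39.6, 19.3, 28.8 and 13.4 after 1 exposure and 15.3, 3.1, 34.3, 24.5 and 13.4 after 2 exposures, against 15.8, 31.2, 17.5, 51.1 and 28.9 in control flies. The treatments overlap throughout, and the array with 3.1 stands lowest by far. The log2 change was -0.17 after the 1st exposure (limma adjusted p = 0.956, 95% interval -1.35 to 1.0) and -0.92 after the 2nd (adjusted p = 0.447, interval -2.09 to 0.26), so a change as large as that of Orco lies inside both intervals.

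Ir76b, a coreceptor in amine-sensing and taste neurons (1633365_at), had 21.6, 19.9, 8.7, 24.6 and 7.2 after 1 exposure and 31.7, 11.9, 28.2, 43.4 and 18.0 after 2 exposures, against 11.3, 26.8, 28.2, 21.5 and 18.7 in control flies. Again the treatments overlap. Its log2 change was -0.47 after 1 exposure (adjusted p = 0.766, interval -1.37 to 0.42) and 0.26 after the 2nd (adjusted p = 0.822, interval -0.64 to 1.15).

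Ir93a, which works with Ir25a in cooling-sensing and humidity-sensing neurons, was under the floor on both of its probe sets, with mean Signals of 5.53 (1633165_at) and 3.40 (1635505_a_at). It was therefore tested by an exact two-sided permutation test of log2(Signal) in 6 comparisons, with raw p-values of 0.603 to 0.952 and an adjusted p of 0.952 in each, where 5 arrays against 5 can give no p under 0.00794. Only 1 of its 30 values exceeded 20, at 27.0 on array 3 of the 2nd exposure.

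**Figure D2:**
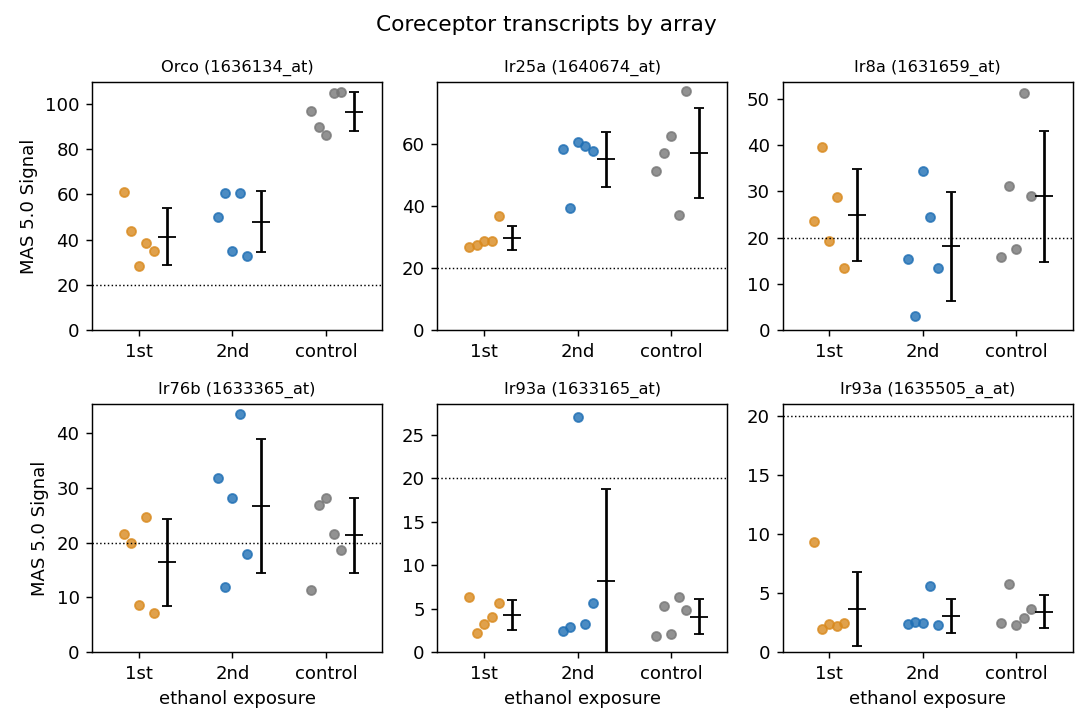
Signal (vertical axes, MAS 5.0 units) of the 6 coreceptor probe sets on each of 15 arrays, by ethanol exposure (1st, 2nd, and control without ethanol). Points are arrays 1 to 5 from left to right, bars give the mean and SD of 5 arrays (cut off at 0 where the SD exceeds the mean), and the dotted line marks a Signal of 20; Orco lies below all control arrays after both exposures, and Ir25a only after the 1st.

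Of the 14 tested probe sets for tuned odorant receptors, none passed the threshold against control flies by limma after either exposure, and none had an unadjusted p under 0.05, which 10.5% and 16.4% of all tested probe sets had. Their median log2 change was -0.02 after 1 exposure, with 7 above and 7 below 0, and 0.17 after 2 exposures, with 9 above and 5 below 0. The floor was set on the mean of all 15 arrays, exposed ones included. Or67a, Or35a, Or65c and Or42a, with control means of 18.7, 14.9, 18.2 and 18.8, reached it through exposed arrays. Among those that did not reach it were Or67d, Or65b, Or9a, Or85e, Or88a and Or85f. Their control means were 24.1, 29.5, 23.8, 21.0, 22.3 and 23.1, with lower means after both exposures. The part of the floor in the balance of signs was not tested. The 5 of the 14 at 20 or more on every array included receptors of the adult antenna, of the palp and of the larva. Or43b, an antennal receptor tuned to fruit esters (1634800_at), had Signals of 53.2, 70.3, 61.0, 62.2 and 63.8 after 1 exposure and 64.2, 102.4, 80.9, 35.1 and 66.5 after 2 exposures, against 59.0, 82.1, 46.0, 48.2 and 65.1 in control flies. Its treatments overlap, with log2 changes of 0.07 (95% interval -0.43 to 0.58) and 0.17 (interval -0.34 to 0.67). For Or43b the fall seen in Orco lies outside the interval after each exposure.

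Or59b, the receptor of methyl acetate in large antennal sensilla (1630037_at), had 62.5, 39.3, 47.0, 32.8 and 35.5 after 1 exposure and 50.3, 56.3, 31.6, 21.6 and 34.1 after 2 exposures, against 50.6, 49.7, 47.6, 50.1 and 44.8 in control flies. The control arrays were close together and the arrays of exposed flies spread to both sides of them. The log2 change of Or59b was -0.20 (adjusted p = 0.845) after the 1st exposure and -0.41 (adjusted p = 0.421, interval -0.90 to 0.09) after the 2nd. Or94a, best known as a receptor of larvae (1637134_at), averaged 43.9 ± 9.79 after 1 exposure and 48.9 ± 14.6 after 2 exposures, against 49.1 ± 4.90 in control flies. Or23a, an antennal receptor (1638928_at), averaged 35.6 ± 8.22 after 1 exposure and 39.7 ± 13.8 after 2 exposures, against 45.0 ± 4.84 in control flies. Or59c, a receptor of the maxillary palp (1627860_at), averaged 32.7 ± 9.11 after 1 exposure and 38.2 ± 12.6 after 2 exposures, against 35.8 ± 12.1 in control flies (SD, n = 5 each). In each of these the treatments overlap, and no adjusted p was under 0.586 for Or94a, Or23a or Or59c after the 1st exposure.

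The remaining 9 tuned odorant receptors varied widely from array to array. The largest fitted rises were those of Or67a (0.67, adjusted p = 0.765) and Or35a (0.62, adjusted p = 0.824) after the 1st exposure and of Or35a (1.18, adjusted p = 0.41) and Or65c (0.83, adjusted p = 0.457) after the 2nd. The control means of Or67a, Or35a and Or65c were under 20 (18.7, 14.9 and 18.2), so each was tested only because of higher exposed arrays. Or35a, a broadly tuned receptor of coeloconic sensilla (1633555_at), had 3.2, 38.5, 21.7, 25.6 and 29.9 after 1 exposure and 19.0, 16.4, 27.1, 37.2 and 45.8 after 2 exposures, against 14.5, 3.7, 10.5, 33.1 and 12.9 in control flies. The values span more than the difference between treatments, and the other 2 probe sets for Or35a had mean Signals of only 8.23 and 3.89. Or42a, a palp receptor of esters and ketones, averaged 20.8 ± 3.98 after 1 exposure and 29.9 ± 12.7 after 2 exposures, against 18.8 ± 5.09 in control flies. It did not pass after the 2nd exposure (log2 change 0.54, adjusted p = 0.494), but did so without array 1 of that exposure, whose Signal of 9.0 was the lowest of the 5 (log2 change 0.93, adjusted p = 0.0302). The others ran from a treatment mean of 18.0 for Or74a after the 2nd exposure to 38.9 for Or43a after the 2nd exposure, and included Or63a, Or71a, a palp receptor of a phenolic odorant, and Or7a, an antennal receptor of leaf aldehydes.

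**Figure D3:**
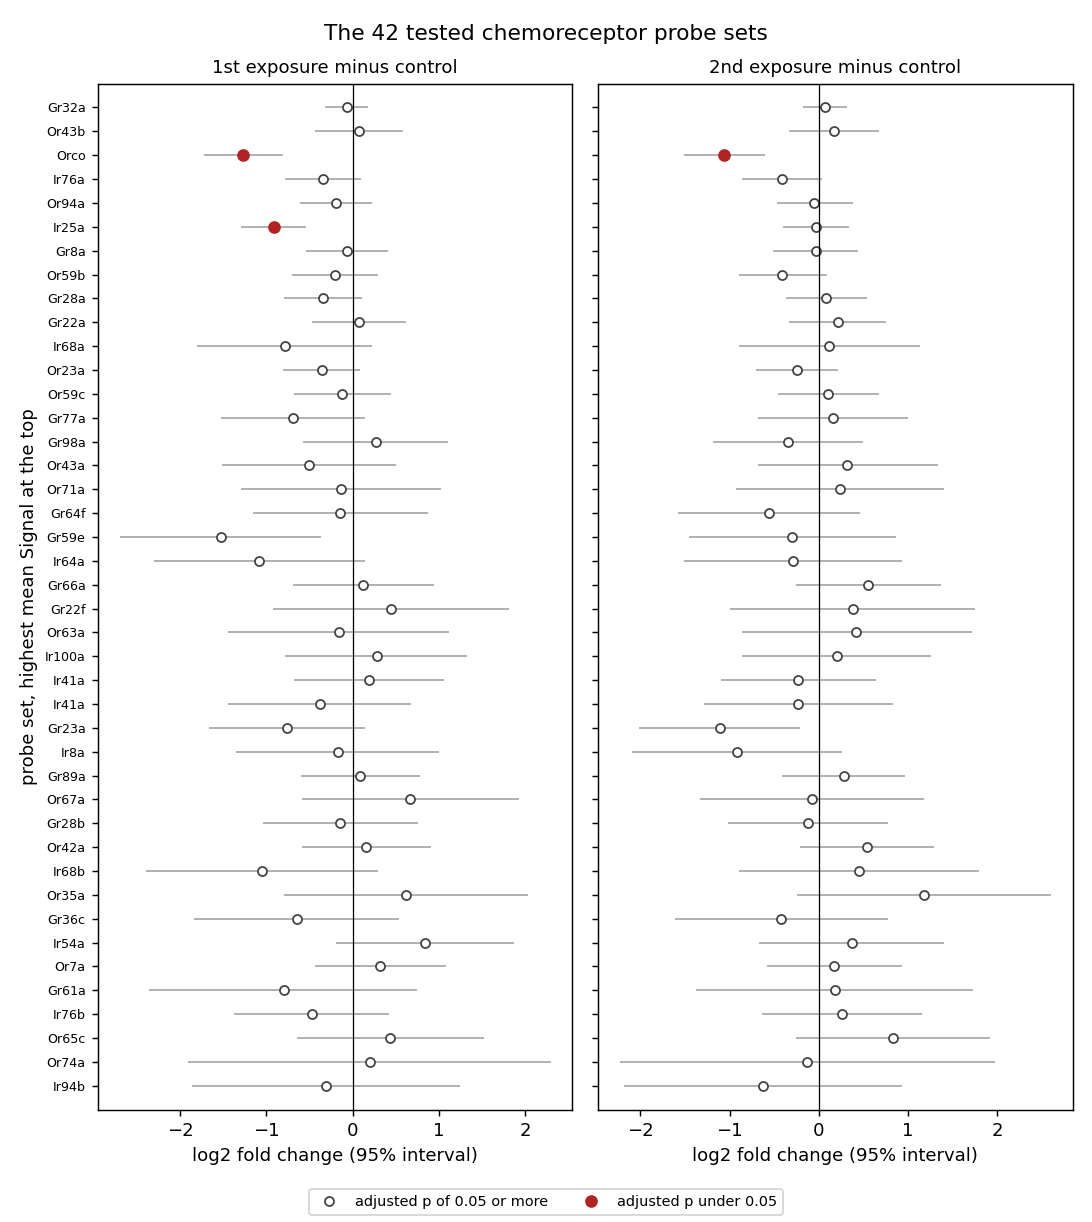
Log2 fold change (horizontal axes) of each of the 42 tested chemoreceptor probe sets in each exposure minus control (left, 1st; right, 2nd), ordered by mean Signal with the highest at the top. Lines are 95% intervals and filled points passed an adjusted p of 0.05, which Orco and Ir25a did on the left and Orco alone on the right; intervals widen toward the low Signals at the bottom.

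None of the 15 tested gustatory receptors passed the threshold in any comparison, with a median log2 change of -0.14 after the 1st exposure, 0.07 after the 2nd exposure and 0.14 between the exposures (2nd minus 1st). Gr32a, a receptor of bitter compounds and of a male pheromone (1626151_at), had the smallest SE of the 42 tested members (0.12 on the log2 scale). Its Signal was 166.6, 156.1, 178.1, 113.6 and 157.3 after 1 exposure and 191.0, 177.6, 167.9, 150.5 and 155.8 after 2 exposures, against 147.3, 186.5, 143.4, 157.5 and 170.7 in control flies. The treatments overlap, and the log2 change was -0.07 (95% interval -0.32 to 0.18) after the 1st exposure and 0.07 (interval -0.18 to 0.32) after the 2nd. A change of Gr32a as large as that of Orco or Ir25a after the 1st exposure lies outside these intervals.

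Gr66a, a receptor made in nearly all bitter-sensing neurons (1639129_at), had 19.2, 15.1, 17.2, 43.6 and 36.9 after 1 exposure and 20.2, 42.7, 18.3, 47.4 and 47.9 after 2 exposures, against 19.0, 21.2, 24.5, 37.8 and 14.1 in control flies. Its values overlap between treatments, with a log2 change of 0.55 after the 2nd exposure (adjusted p = 0.519). Gr8a, which takes part in sensing a toxic plant amino acid (1624233_at), averaged 45.7 ± 13.4 after 1 exposure and 46.0 ± 8.99 after 2 exposures, against 48.1 ± 14.0 in control flies. Gr28a (1624034_at), made in taste neurons and in neurons of the body, averaged 36.9 ± 11.5 after 1 exposure and 48.5 ± 11.1 after 2 exposures, against 45.2 ± 6.97 in control flies (SD, n = 5 each).

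Of 8 probe sets for sugar receptors 2 (25%) reached the floor, close to the share in all chemoreceptors: Gr64f, the coreceptor of most sugar receptors, and Gr61a. Gr64f averaged 28.0 ± 4.87 after 1 exposure and 27.4 ± 19.4 after 2 exposures, against 31.1 ± 6.43 in control flies, where arrays 3 and 4 of the 2nd exposure had 5.70 and 11.8. Neither of the carbon dioxide receptors reached it, with mean Signals of 18.9 for Gr21a and 3.02 for Gr63a. Among the bitter receptors found in most bitter neurons, 3 of 9 probe sets did, those of Gr32a, Gr66a and Gr89a.

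The gustatory receptors with the largest fitted falls did not pass. Gr59e, a receptor of bitter neurons (1623450_at), had 22.0, 28.2, 16.5, 4.4 and 5.9 after 1 exposure and 10.4, 42.9, 22.6, 63.6 and 29.8 after 2 exposures, against 49.7, 29.1, 41.0, 34.0 and 26.8 in control flies. Only array 2 of the 1st exposure overlapped the control arrays. Its log2 change of -1.53 had an unadjusted p of 0.0135 and did not pass by limma (adjusted p = 0.319). Gr23a (1627186_at) had 13.2, 36.0, 12.9, 21.6 and 7.0 after the 2nd exposure, against 26.9, 28.0, 41.8, 40.6 and 34.0 in control flies, a log2 change of -1.11 that did not pass either (adjusted p = 0.189). The other 2 probe sets for Gr23a were under the floor, and on both of them the mean after the 2nd exposure was above that of control flies (16.4 against 8.70, and 3.82 against 1.12), so the probe sets for this gene disagree in direction.

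Besides the coreceptors, 9 ionotropic receptor probe sets were tested and none passed. Ir76a, the subunit for an amine that works with Ir25a and Ir76b (1633880_s_at), had 35.3, 55.5, 92.6, 51.3 and 53.5 after 1 exposure and 71.7, 45.7, 49.8, 41.7 and 56.3 after 2 exposures, against 78.5, 68.5, 64.6, 72.9 and 63.6 in control flies. In each exposure 4 of 5 arrays lay below all control arrays, and 1 did not. The log2 change was -0.34 (adjusted p = 0.606, 95% interval -0.78 to 0.10) after the 1st exposure and -0.41 (adjusted p = 0.341, interval -0.86 to 0.03) after the 2nd. Ir64a, an acid-sensing subunit (1633636_at), had 24.5, 26.9, 3.0, 13.5 and 34.3 after the 1st exposure, against 14.0, 30.4, 34.1, 57.2 and 47.1 in control flies. These overlap, and its log2 change of -1.08 did not pass (adjusted p = 0.53).

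Ir68a, a subunit of moist-air-sensing neurons (1640580_at), averaged 27.3 ± 13.1 after 1 exposure and 46.4 ± 15.3 after 2 exposures, against 47.5 ± 23.0 in control flies (log2 change after the 1st exposure -0.78, adjusted p = 0.601). Both tested probe sets for Ir41a, a subunit for polyamine odors, gave no adjusted call, and their log2 changes after the 1st exposure had opposite signs. The largest fitted rise after the 1st exposure among all 42 members was that of Ir54a (0.84, adjusted p = 0.577), whose control arrays had 5.5, 15, 44.6, 14.8 and 12.4. Their mean of 18.5 was under the floor, which Ir54a reached only through exposed arrays.

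**Figure D4:**
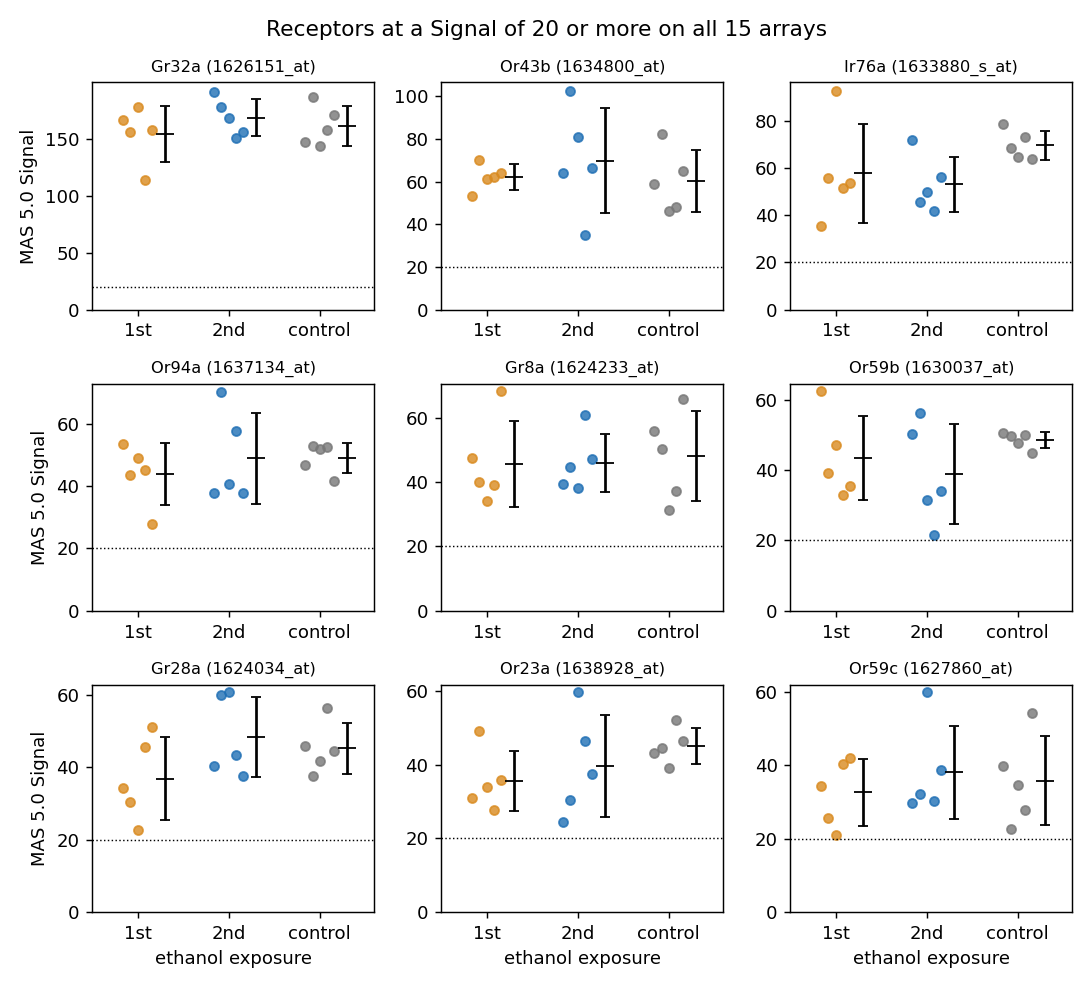
Signal (vertical axes, MAS 5.0 units) on each of 15 arrays, by ethanol exposure (1st, 2nd, and control without ethanol), of the 9 receptors other than Orco and Ir25a that were at 20 or more on every array (dotted line, 20). Points are arrays 1 to 5 from left to right and bars give the mean and SD of 5 arrays; the treatments overlap in all 9.

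As a group the 42 tested members had small median changes. Their median log2 change was -0.15 after the 1st exposure, 0.08 after the 2nd exposure and 0.15 between the exposures (2nd minus 1st), where the 2571 other probe sets at a mean Signal of 20 to 65 had medians of -0.11, 0.08 and 0.21. The change was below 0 in 27 of 42 members after the 1st exposure, beside 56.8% of all tested probe sets, and in 20 of 42 after the 2nd exposure, beside 50.1%. By the separation of 5 arrays from 5, 2 members lay below control flies after the 1st exposure (Orco and Ir25a, beside 1.60% of all tested), 1 after the 2nd exposure (Orco, beside 2.05%), and 2 were higher after the 2nd exposure than after the 1st (Ir25a and Gr77a, beside 3.39%). Gr77a, singled out after its values were seen, had 28.0, 28.2, 52.2, 40.7 and 57.4 after the 2nd exposure, against 25.5, 26.2, 26.1, 12.6 and 23.1 after the 1st, with an adjusted p of 0.31.

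The precision of most members was low. The median residual SD on the log2 scale was 0.71 for the 42 members and 0.68 for the other probe sets at a mean Signal of 20 to 65, but 0.18 over all tested probe sets. For the median member, a log2 change of 2.12 would have been needed to pass for 1 exposure and 1.62 for 2 exposures, against 0.57 and 0.44 for the median probe set of the array. The falls of Orco and Ir25a after the 1st exposure, given above, were smaller than the size the median member would have needed.

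The 148 members under the floor had no test in the main comparison. A fit with no floor, over all 18769 probe sets, called 27 (0.144%) after the 1st exposure, of which 1 was a member (Orco), and 370 (1.97%) after the 2nd exposure, of which 2 were members (Orco and Ir75a). Ir75a, an antennal receptor of acetic and propionic acid (1638785_at), had 1.4, 2.3, 1.9, 1.8 and 2.9 after the 2nd exposure, against 9.7, 23.7, 13.4, 18.1 and 11.1 in control flies. The groups are apart, with all but 1 of these 10 values under 20. This call was kept without arrays 4 and 5 of the 2nd exposure (limma adjusted p = 0.0447) and with the replicate block (0.0394). With the residual component in the fit, which cannot move the log2 change, the adjusted p was 0.0074. The log2 change after the 2nd exposure was -2.85 (limma adjusted p = 0.00733), and after the 1st exposure, with 16.1, 3.6, 4.2, 7.1 and 1.9, it was -1.51 (adjusted p = 0.331).

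Or67d, the receptor of the male pheromone cis-vaccenyl acetate (1634394_at), is named by the study among the acutely down-regulated genes of these same arrays. It is therefore no independent case. It had 2.5, 6.7, 3.9, 8.4 and 8.4 after the 1st exposure, against 30.3, 12.6, 26.5, 28.5 and 22.8 in control flies. Every array of the 1st exposure lay below every control array, and both means, 5.98 ± 2.68 and 24.1 ± 7.03 (SD, n = 5 each), were close to or under the floor. After the 2nd exposure it had 6.9, 15.1, 12.5, 5.0 and 23.5, which overlaps the control arrays. In the fit with no floor its log2 change was -2.10 after 1 exposure (adjusted p = 0.116) and -1.08 after the 2nd (adjusted p = 0.308). The study's call came from an analysis of variance on linear Signal, without probe sets called absent. Scale and tested set thus differ from this fit. By acute the study means a change sustained after the 1st exposure, while here the 2nd exposure overlapped the control arrays. Over all 190 members, 4 lay wholly below control flies after the 1st exposure (Orco, Ir25a, Or67d and Ir60e, beside 1.36% of all 18769 probe sets) and 2 after the 2nd exposure (Orco and Ir75a, beside 1.65%), while 6 were wholly higher after the 2nd exposure than after the 1st (beside 2.71%). Ir60e (1637711_at) had 3.8, 2.1, 1.9, 2.9 and 1.2 after the 1st exposure, against 20.2, 16.2, 11.5, 17.3 and 7.4 in control flies, with an adjusted p of 0.0863 in that fit.

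Other transcripts of the antenna were also lower. A list of secreted and support proteins of the antenna, several of which the study named from these same arrays and which are therefore not independent, had 12 tested genes, with 8 lower and 1 higher for 1 exposure and 9 lower and 1 higher for 2 exposures. Of all tested probe sets 0.188% were lower and 0.174% higher for 1 exposure, and 1.21% and 2.42% for 2 exposures. The count lower was 8 for 1 exposure in each of the 3 repeated fits, and 8 or 9 for 2 exposures. The median log2 change of this list was -1.83 for 1 exposure and -1.58 for 2 exposures. The odorant-binding protein lush, which carries pheromone to the neurons that make Or67d, averaged 96.8 ± 8.95 after 1 exposure and 96.0 ± 27.0 after 2 exposures, against 271 ± 43.4 in control flies (adjusted p = 0.00369 for 1 exposure and 0.000329 for 2). Obp83b averaged 300 ± 67.2 after 1 exposure and 242 ± 126 after 2 exposures, against 1290 ± 291 in control flies (SD, n = 5 each). The 1 gene of the list that rose was Pino (log2 change 0.29 for 1 exposure, adjusted p = 0.0196, and 0.50 for 2, adjusted p = 7.77e-05), a call lost for 1 exposure with the replicate block (0.0783). The summed Signal of this list was 10604 to 11543 after 1 exposure and 11297 to 12906 after 2 exposures, all below the control arrays at 13525 to 18826. Most of this sum came from Obp19d and Pino, with control means of 7110 and 3300, so it says little of the other genes.

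Of 11 tested membrane and signalling genes with roles in olfactory tissue none passed against control flies after either exposure (median log2 change -0.07 and 0.05), among them Snmp1, a membrane protein of pheromone-sensing neurons, at 121 ± 20.7 after 1 exposure and 137 ± 14.7 after 2 exposures, against 157 ± 16.6 in control flies (adjusted p = 0.251 for 1 exposure and 0.472 for 2). RNA of a whole fly does not separate olfactory neurons from other cells that make these genes. A change in those neurons alone was therefore not tested. Of these 11, ATP8B, a lipid flippase of olfactory neurons, was higher after the 2nd exposure than after the 1st (log2 difference 0.48, adjusted p = 0.0321, beside 1.76% of all probe sets called), but not with the replicate block (0.0554) or without arrays 4 and 5 (0.119). None of 10 tested transcription factors of neuron identity passed after either exposure (median -0.16 and -0.04), nor did any of 8 tested channels of other chemosensory or sensory neurons (median -0.22 and 0.06). Of 7 general neuronal genes, none passed for 1 exposure and 1 for 2 exposures, nSyb, higher by 0.65 (adjusted p = 0.0451, beside 3.63% of all probe sets called), and this call was lost without arrays 4 and 5 of the 2nd exposure (0.167) or with the replicate block (0.0614). The summed Signal of the neuronal genes was 2390 to 2981 after 1 exposure and 2750 to 3375 after 2 exposures, against 2547 to 3434 in control flies, and these ranges overlap. The 3 tested photoreceptor genes, with sums of 18046 to 20919 after 1 exposure and 19251 to 22017 after 2 exposures, against 19033 to 26885 in control flies, and the tested markers of testis (6), midgut (4) and accessory gland (4) held no call after either exposure. Most of the photoreceptor sums came from Arr2, with a control mean of 17900. The part of the antennal genes' fall in that of Orco and Ir25a was not tested.

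**Figure D5:**
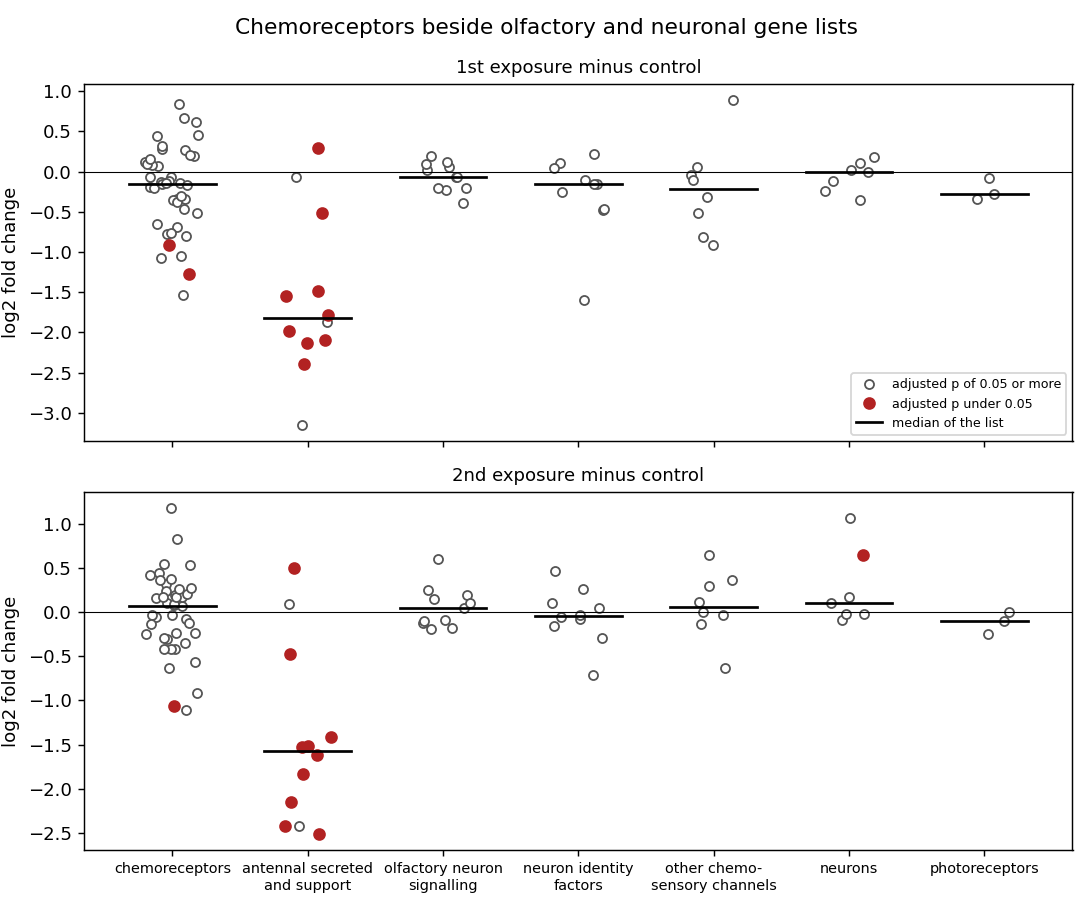
Log2 fold change (vertical axes) in each exposure minus control (top, 1st; bottom, 2nd) of the 42 tested chemoreceptor probe sets and of the tested genes of 6 other lists, 1 point each with the median as a line and random horizontal spread. Filled points passed an adjusted p of 0.05; the antennal secreted and support proteins lie mostly below -1 with medians of -1.83 and -1.58, while the chemoreceptors and the other 5 lists have medians between -0.28 and 0.11.

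Some members may carry signal of a neighbour. By the RefSeq annotation of the Release 6 assembly, 7 of the 12 members with the highest mean Signal (58.3%) overlap another protein-coding gene, among them Gr32a with CG6230, Or43b with Cul1, Ir76a with CG14102 and Or23a with Prosbeta4R2. For all tested members the count was 13 of 41 genes (31.7%), for genes with every probe set under the floor 28 of 131 (21.4%), and for all protein-coding genes 5765 of 13951 (41.3%). The strand and position of the probes were not used here, so the part of a neighbour in these Signals was not tested. Neither Orco nor Ir25a overlaps another protein-coding gene in that annotation. Chemoreceptor genes often lie beside each other: 12 of the 41 tested genes (29.3%) and 63 of the 131 under the floor (48.1%) have a receptor gene as the next gene, beside 2.36% of all protein-coding genes.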

How the data were processed

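Whole-body RNA of 15 pools of 30 males was hybridized to a Drosophila GeneChip array. The deposited intensity is the Signal of Microarray Suite 5.0, which the authors computed from pairs of matching and mismatched probes and scaled per array, and it was used as deposited. Detection calls were not used here. Of 18952 probe sets, 183 controls were left out. The 13809 others whose Signal averaged at least 20 were fitted in limma 3.58.1 (R 4.3.3) on the log2 scale, with a mean for each treatment, eBayes moderation and Benjamini-Hochberg adjustment at 0.05. Intervals cover 95%. Gene symbols came from the platform annotation (13647 probe sets with 1 symbol, 402 with several, 4903 with none), and all 190 members matched RefSeq by gene ID. A probe set shared by Ir75d and a gene of another family was left out. Lists use each gene's probe set of highest mean Signal. The members and lists were chosen with earlier results of these data known.

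Named were all coreceptors, Or67d, every member with a call, the 12 of highest mean Signal, the 3 largest changes in each direction after each exposure, the 3 on both sides of the floor and every tested odorant receptor. Alternatives were quantile normalization, equalised medians, log2(Signal + 50), no floor, a mean Signal of 70 as the floor, a replicate block, eBayes trend, arrayWeights, the methods' one-way analysis of variance on linear Signal, and each array left out. The fit was tested on simulated data. Python 3.11.15 with pandas 2.3.3, numpy 2.4.6, scipy 1.17.1 and matplotlib 3.10.9 made the tables and plots.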

Additional observations from a re-analysis of the deposited data

Results flagged for a closer look

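Among 36 named members and 3 treatments, 108 groups of 5 arrays were searched for an array far from the other 4, and 9 were found, where chance alone gives about 1 in 20 groups. Both exposed groups of Ir25a held one: after the 1st exposure array 5 had 36.7 beside 26.9 to 28.9 on the others, and after the 2nd exposure array 2 had 39.5 beside 57.7 to 60.7. Each of these arrays lies on the side of the other exposure, so leaving it out widens the difference and is no check of it. The log2 difference was 0.96 without array 5 of the 1st exposure (limma adjusted p = 0.0249). It was 1.0 without array 2 of the 2nd exposure (adjusted p = 0.0131), against 0.88 with all arrays. For Ir93a array 3 of the 2nd exposure had 27.0 beside 2.4 to 5.6 on one probe set, and on the other array 1 of the 1st exposure had 9.3 beside 2.0 to 2.5 and array 4 of the 2nd exposure 5.6 beside 2.3 to 2.6. In control flies array 3 had 44.6 for Ir54a beside 5.5 to 15, array 5 had 55.9 for Or43a beside 22.2 to 31.8, and array 3 had 2.4 for Or88a beside 23.3 to 30.8. For Or7a array 3 of the 2nd exposure had 32.7 beside 16.6 to 20.7.

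A difference between the effects of the exposures, both set against the same control arrays, was found for Ir25a, whose log2 change was higher after the 2nd exposure than after the 1st by 0.88 (limma adjusted p = 0.0215). With quantile normalization this difference was 0.67 and did not pass (adjusted p = 0.0844), and it was kept in 9 of 15 fits with 1 array left out. For Orco the corresponding difference of 0.21 did not pass (adjusted p = 0.677).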

How the results depend on the processing

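Among single members 2183 of 2217 comparisons with an alternative kept their direction or stayed without a call, 33 lost a call, 1 gained one (Or42a) and none turned round. Most of these comparisons are of members without a call, which had none to lose. The call of Orco after the 1st exposure was lost in 5 of 15 fits with 1 array left out and in 1 of 10 other alternatives. That of Ir25a was lost in 12 of 15 and 7 of 10 after the 1st exposure, and in 6 of 15 and 2 of 10 between the exposures. The call of Orco after the 2nd exposure was never lost. After the 1st exposure 2 members were called. That count was 1 with quantile normalization, no floor, eBayes trend, arrayWeights or 2nd exposure arrays 4 and 5 left out together, 0 with the nearest arrays averaged, and 0 to 2 with 1 array left out. After the 2nd exposure 1 was called, against 2 with no floor and 1 to 2 with 1 array left out. Between the exposures 1 was called, against 0 with quantile normalization or without 2nd exposure arrays 4 and 5, and 0 to 1 with 1 array left out. Over the 3 treatments 2 were called, against 4 with no floor (with Ir75a and Ir60e) and 1 without 2nd exposure arrays 4 and 5. A mean Signal of at least 70 gave 0 in each comparison, since it leaves Orco and Ir25a untested. The cause of the other differences was not tested. The averaging of nearest arrays (control 1 and 4, 1st exposure 2 and 4), the residual component in the fit and leaving out arrays 4 and 5 together were chosen after seeing the data.

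In all probe sets the calls after the 1st exposure numbered 50, and ran from 8 with the nearest arrays averaged to 96 with the residual component. For the 2nd exposure they numbered 501, and ran from 256 without arrays 4 and 5 to 980 with the residual component. Between the exposures they numbered 243, and ran from 81 to 537 under the same settings. The count of members at the floor, 42, was 41 to 44 with 1 array left out.

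With the replicate number as a block, the call of Ir25a after the 1st exposure was lost (adjusted p = 0.0607), leaving 1 member, and calls in all probe sets numbered 32 for the 1st exposure and 164 for the 2nd against the 1st. No other member call changed with the block. Of the other lists, 1 of 10 neuron identity factors passed after the 2nd exposure with the block, and 1 of 4 midgut markers with the residual component. By the methods each replicate has shared starting groups for its 3 treatments, but no source ties the array numbers to those replicates. In 15 pairs of like-numbered arrays the residuals correlated at -0.0731 to 0.0982, within the range of -0.163 to 0.138 in 60 pairs of unlike numbers, and for 3 of 15 arrays the nearest array had the same number. Depth is not a count here, and 5 arrays a treatment and Signals near the floor limit the precision.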

Other observations

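Of the 190 members, 6 lay wholly higher after the 2nd exposure than after the 1st, beside 2.71% of all 18769 probe sets, and 4 of these were under the floor and singled out after their values were seen. Or45b, a receptor best known in larvae, had 15.4, 28.1, 14.5, 40.4 and 12.5 after the 2nd exposure, against 1.8, 7.2, 4.9, 10.2 and 7.0 after the 1st. Its control arrays, at 4.2, 3.5, 3.3, 1.2 and 17.0, were mostly low as well. Or69a, an antennal receptor with isoforms measured by 3 probe sets, was higher on 2 of them, with 20.4, 16.7, 20.9, 16.1 and 15.5 after the 2nd exposure against 9.9, 3.1, 12.7, 3.0 and 14.8 after the 1st on 1625914_at, and means of 5.08 and 1.20 on 1639973_a_at. On the remaining probe set the means were 2.46 after the 2nd exposure and 2.74 after the 1st, and the arrays overlapped. Ir92a was higher on 1 of its 2 probe sets, with means of 4.12 after the 2nd exposure and 2.04 after the 1st. None of the 4 passed in the limma fit with no floor (adjusted p of 0.23 for Or45b, 0.345 and 0.195 for Or69a and 0.395 for Ir92a).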
